A study of Mus musculus with 2 samples.

Results

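The 8 regulators that shorten the life of mRNAs, slow their translation or restrain proliferation were followed in mouse lung group 2 innate lymphoid cells (ILC2s), tissue-resident lymphocytes that lack antigen receptors and release type 2 cytokines. The members were taken from a list of genes, Zfp36, Zfp36l1, Zfp36l2, Zc3h12a, Rc3h1, Btg1, Btg2 and Pdcd4, and all 8 were present among the 32285 genes of both matrices. The study sorted live ILC2s as cells lacking lineage markers and carrying CD90, ST2 and Sca-1, after magnetic depletion of most other blood cells. It made 1 droplet-based 3′ scRNA-Seq library from WT mice and 1 from Pac1-/- mice. Pac1-/- mice lack PAC1, a phosphatase encoded by Dusp2, and were on the C57BL/6J background. The labels of both libraries give no stimulus, age or sex, and the study worked with young adult mice matched for age and sex. The cells of several mice of a genotype were pooled, no label tied a cell to a mouse, and the deletion was carried by every cell of the mouse. With 1 library per genotype there was no test between genotypes. Values were unique molecular identifiers (UMIs) summed over cells and scaled to 1000000 summed UMIs (CPM), and every interval is a 95% interval that covers counting error only, not the spread between mice.

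Transcripts of cytokines and of growth regulators are often short-lived. Zfp36 (tristetraprolin) and its relatives Zfp36l1 and Zfp36l2 are zinc-finger proteins that bind AU-rich elements in 3′ untranslated regions (UTRs) and recruit the CCR4-NOT complex, which removes the poly(A) tail. Zc3h12a encodes Regnase-1, an endonuclease that cuts stem-loops in cytokine transcripts, and Rc3h1 encodes Roquin-1, which binds stem-loops and also recruits deadenylases. Btg1 and Btg2 encode antiproliferative proteins that bind the deadenylases of CCR4-NOT and are linked to quiescence in lymphocytes. Pdcd4 encodes an inhibitor of translation that binds the helicase eIF4A. In ILC2s, Regnase-1 is known as a brake on activation.

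The AU-rich nonamer TTATTTATT, written as DNA, is shown because it is the element that the ZFP36 proteins recognise, and because the same proteins are known to control their own transcripts. It was searched on the transcript strand of the 3′ UTR of the longest annotated coding transcript (GENCODE, GRCm38). It was present in 7.72% of 20565 genes with a 3′ UTR of at least 50 bases. Among the members, Zfp36, Zfp36l1, Zfp36l2 and Rc3h1 each held 1 copy, and Zc3h12a, Btg1, Btg2 and Pdcd4 held none. Tnf held 5 overlapping copies, Il2 held 1 and Il5 none, although the Il5 UTR held 7 copies of the core pentamer ATTTA. The first match of each gene is given below with the nonamer in capitals, read 5′ to 3′ on the gene's strand.
Zfp36 (chr7:28376950-28376979, minus strand): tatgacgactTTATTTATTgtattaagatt
Zfp36l1 (chr12:80108166-80108195, minus strand): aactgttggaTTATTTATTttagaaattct
Zfp36l2 (chr17:84184913-84184942, minus strand): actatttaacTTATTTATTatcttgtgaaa
Rc3h1 (chr1:160970043-160970072, plus strand): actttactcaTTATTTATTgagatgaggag
Tnf (chr17:35199688-35199717, minus strand): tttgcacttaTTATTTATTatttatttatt
Il2 (chr3:37120897-37120926, minus strand): ttatctgaaaTTATTTATTatattgaattg

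All 8 members are protein-coding. In GRCm38, Zfp36 (ENSMUSG00000044786) lies at chr7:28376784-28380253, Zfp36l1 (ENSMUSG00000021127) at chr12:80107754-80113013 and Zfp36l2 (ENSMUSG00000045817) at chr17:84183931-84187947. Zc3h12a (ENSMUSG00000042677) lies at chr4:125118423-125127840 and Rc3h1 (ENSMUSG00000040423) at chr1:160906418-160974978. Btg1 (ENSMUSG00000036478) lies at chr10:96617006-96622809, Btg2 (ENSMUSG00000020423) at chr1:134075170-134079120 and Pdcd4 (ENSMUSG00000024975) at chr19:53892231-53929860. Rc3h1 overlaps 3 predicted genes on its own strand, so some of its reads could have been set aside or shared, and the other members overlap no gene on their strand. Promoter windows from RefSeq (GRCm38.p6, from 250 bases before to 50 after the start) were found for 7 members, with 2 windows for Pdcd4. Motifs of 3 factors that act downstream of growth, stress or cAMP signals were searched on both strands. These were GTAAACA (FOXO, in 3.65% of 32851 promoters), TGACGTCA (the cAMP response element, 1.79%) and TGACTCA (AP-1, 5.20%), and the matches did not overlap. Btg1 held 1 FOXO match, Btg2 1 cAMP response element and Rc3h1 1 AP-1 match, and the other windows held none of these letters. The matches are shown in capitals, each read on the strand of its gene, and the Btg1 match is the reverse complement of the FOXO letters.
Btg1 (chr10:96616786-96616815, plus strand): gggggtttattTGTTTACaagcagattacg
Btg2 (chr1:134079303-134079332, minus strand): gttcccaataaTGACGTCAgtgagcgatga
Rc3h1 (chr1:160906267-160906296, plus strand): gttggggccggTGACTCAgagctttcctcc

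Of the barcodes deposited, 8394 of 10866 from WT and 7087 of 9495 from Pac1-/- passed a minimum of 500 genes and a limit of 10% of UMIs from mitochondrial genes. These cells held 54579034 and 58338886 UMIs, with medians of 4186.5 and 5577 per cell. The 2 libraries shared 29 barcodes, of which 15 were among the cells of both. Dusp2 had 1419 UMIs in WT (26.0 CPM) and 5 in Pac1-/- (0.0857 CPM), although the labels do not say which part of the gene was deleted. All 9 ILC2 markers examined were found in both libraries, with a summed level of 6726 CPM in WT and 6171 CPM in Pac1-/-. Within that sum they moved apart: Ly6a, which encodes the sort marker Sca-1, was at 100 and 213 CPM and Il7r at 812 and 1081 CPM, whereas Klrg1 was at 197 and 131 CPM and Rora at 2265 and 1686 CPM. T cell markers summed to 142 CPM in WT and 105 CPM in Pac1-/-, with Cd8a at 0 in both. Of the T cell markers Cd3g was at 119 and 93.7 CPM, Cd3e at 10.5 and 5.88 CPM, Trac at 8.08 and 3.05 CPM and Cd3d at 4.23 and 2.25 CPM. The other marker sums, WT first, were 76.1 and 269 CPM for erythroid cells, 13.2 and 28.6 for mast cells or basophils, 1.36 and 5.73 for myeloid cells, 6.30 and 11.4 for B cells and 53.9 and 78.9 for epithelial cells. They were 1.12 and 2.31 CPM for NK cells, 41.8 and 38.6 for endothelial cells and 2.09 and 2.25 for stromal cells. Heat shock genes summed to 2863 and 4442 CPM, and the median share of mitochondrial UMIs was 2.50% and 3.27%. The 10 immediate-early genes examined, which are induced within minutes of stimulation or handling, summed to 16501 CPM in WT and 18943 CPM in Pac1-/-. They did not move as one: 7 were higher in Pac1-/-, whereas Nr4a1 was at 1882 and 1133 CPM, Atf3 at 880 and 636 CPM and Egr1 at 219 and 173 CPM. The part of these differences in the results was not tested, except where values with and without them are given.

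Btg1 and Pdcd4 stood at 55.3% and 51.4% of their WT level in the Pac1-/- library, and the other 6 members lay within 1.5-fold of WT. Of 12427 genes with at least 50 UMIs over both libraries, 8.34% were at least 1.5-fold lower in Pac1-/- and 16.9% at least 1.5-fold higher, against 2 members lower and 0 higher. Relative to the median gene, which was itself 0.19 higher in Pac1-/- on the log2 scale, these shares became 12.8% lower and 8.22% higher, and 3 members, Rc3h1 added, were past 1.5-fold lower.

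Btg1 was at 3433 CPM in WT and 1899 CPM in Pac1-/-. Its log2 ratio was -0.85 (-0.86 to -0.84), and -1.04 relative to the median gene. Pdcd4 was at 448 CPM in WT and 231 CPM in Pac1-/-, with a log2 ratio of -0.96 (-0.99 to -0.93), or -1.15 relative to the median gene. Both ratios thus lay among the lowest of all genes tested, Btg1 at the percentile 4.63 and Pdcd4 at 3.64. Leaving out each cell that held any UMI of a T cell marker, 3141 in WT and 2073 in Pac1-/-, a step chosen after these markers were seen to be lower in Pac1-/-, gave -0.82 for Btg1 and -0.94 for Pdcd4.

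Rc3h1, Zc3h12a and Zfp36l1 were lower in Pac1-/- within 1.5-fold. Rc3h1 was at 105 CPM in WT and 79.7 CPM in Pac1-/- (log2 ratio -0.40, interval -0.46 to -0.35). Zc3h12a was at 154 and 128 CPM (log2 ratio -0.27, -0.32 to -0.23). Rc3h2, which encodes the relative Roquin-2 and is no member, was at 48.0 and 57.6 CPM (0.26, 0.19 to 0.34), the opposite direction to Rc3h1. Zfp36l1, at 2629 and 2311 CPM, had a log2 ratio of -0.19 (-0.20 to -0.17). The remaining 3 members were higher in Pac1-/-, and over all cells the 3 ratios were above that of the median gene (0.19). Zfp36l2 was at 593 and 779 CPM (log2 ratio 0.39, 0.37 to 0.41), Btg2 at 791 and 971 CPM (0.30, 0.28 to 0.31) and Zfp36 at 953 and 1137 CPM (0.25, 0.24 to 0.27). The 3 ZFP36 relatives, and likewise the 2 BTG relatives, therefore did not share a direction. Over the 8 members the median log2 ratio was -0.23, beside 0.19 over all genes tested.

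**Figure D1:**
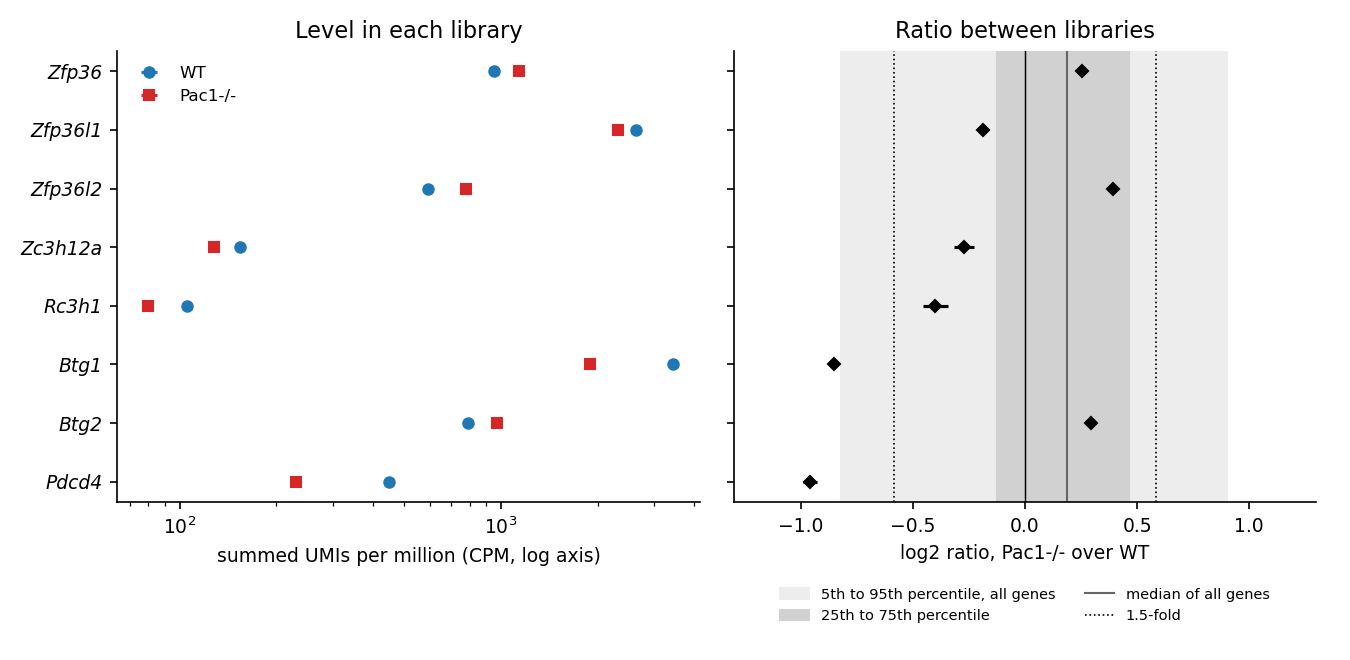
Left, the level of each member in each library as summed UMIs per 1000000 (CPM, log axis); right, the log2 ratio of Pac1-/- over WT with 95% counting intervals, on bands that span the 5th to 95th and 25th to 75th percentiles of all 12427 genes tested. Btg1 and Pdcd4 lie beyond the 1.5-fold line on the lower side, and Zfp36, Zfp36l2 and Btg2 lie above 0.

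Cells differ in what they were transcribing when captured, so the comparison was repeated among like cells. Cells were first divided by whether they held a UMI of Il5, Tnf and Il2, which gave 8 combinations. Btg1 was past 1.5-fold lower in Pac1-/- in 8 of 8 combinations, with log2 ratios from -0.92 to -0.74. Pdcd4 was likewise lower in 8 of 8, with ratios from -1.06 to -0.92. In WT the level of Btg1 ran from 3096 to 3730 CPM over the combinations and in Pac1-/- from 1653 to 2065 CPM. Pdcd4 ran from 413 to 491 CPM in WT and from 209 to 256 CPM in Pac1-/-. The combinations are splits of the same libraries, so they do not repeat the comparison. The share of all genes past 1.5-fold in every combination was not counted. Rc3h1 and Zc3h12a were lower in all 8 combinations, with counting intervals below 0 in 7 and 6 of them. Zfp36, Zfp36l2 and Btg2 were higher in all 8. Zfp36l1 was lower in 6 combinations, all except Il5- cells with a UMI of Il2 alone (0.01) or of both Il2 and Tnf (0.07).

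Depth was divided at 2000, 4000, 8000 and 16000 UMIs per cell. Btg1 and Pdcd4 were past 1.5-fold lower in all 5 depth classes, and both ratios were smallest below 2000 UMIs, at -0.64 for Btg1 and -0.62 for Pdcd4. The depth classes too are splits of the same libraries, and the share of all genes past 1.5-fold in each was not counted. Zfp36l2 was higher in all 5, from 0.28 to 0.41. Zfp36 and Btg2 were close to their WT level in cells with 2000 to under 4000 UMIs. There Zfp36 was at 912 CPM in WT and 901 CPM in Pac1-/-, and Btg2 at 779 and 807 CPM.

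**Figure D2:**
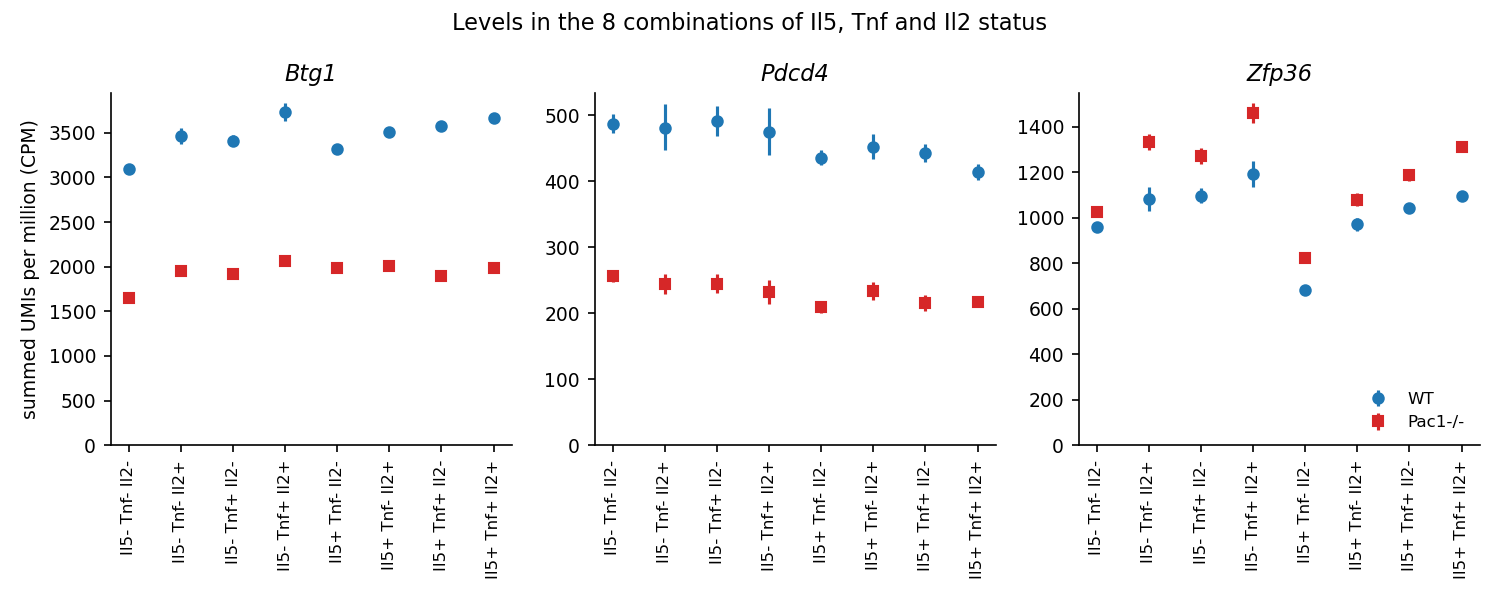
Summed UMIs per 1000000 (CPM) of Btg1, Pdcd4 and Zfp36 in the 8 combinations of Il5, Tnf and Il2 status (+, at least 1 UMI) in the WT and Pac1-/- libraries, with 95% counting intervals. Btg1 and Pdcd4 are lower in Pac1-/- in every combination, whereas Zfp36 is higher in Pac1-/- and, in both libraries, lowest in cells with a UMI of Il5 alone.

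Since Zfp36 and Btg2 are themselves induced quickly by stimulation, the members were compared among cells with like shares of immediate-early UMIs. No member belongs to that list. Terciles of the cells of both libraries were set at 1.13% and 1.93% of a cell's UMIs, a division chosen after the summed list was seen to be higher in Pac1-/-. Since Nr4a1, Atf3 and Egr1 were lower there, cells of like share could differ between the libraries in which of the 10 genes made it up. The highest tercile held 2420 WT cells and 2741 Pac1-/- cells, the lowest 2920 and 2240. Zfp36 followed this share most steeply of the members. It was at 353 CPM in the lowest tercile of WT cells, 870 in the middle and 1529 in the highest, which was 4.33-fold over the lowest. In Pac1-/- it was at 352, 886 and 1719 CPM, 4.89-fold over the lowest. The median gene was lower in the highest than in the lowest tercile, by a log2 ratio of -0.17 in WT and -0.24 in Pac1-/-.

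Btg2 was at 530, 815 and 959 CPM over the terciles in WT and at 531, 934 and 1217 CPM in Pac1-/-. The libraries thus had nearly the same level of Zfp36 and of Btg2 in the lowest tercile, where the ratio between libraries was -0.00 (-0.06 to 0.05) for Zfp36 and 0.00 (-0.04 to 0.05) for Btg2. In the middle tercile Btg2 was higher in Pac1-/-, with a ratio of 0.20 (0.17 to 0.23). In the highest tercile the ratios were 0.17 (0.15 to 0.19) for Zfp36 and 0.34 (0.32 to 0.37) for Btg2. Combined over the terciles, the ratio of Zfp36 was 0.11 in place of 0.25 and that of Btg2 0.24 in place of 0.30. The ratio of Zfp36 was below 0.19, the median gene over all cells, in 3 of 3 terciles, 2 of 8 combinations and 1 of 5 depth classes, and that of Btg2 in 1, 2 and 1 of them, whereas that of Zfp36l2 was above it in each.

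Zfp36l1 showed the opposite arrangement. Its WT and Pac1-/- levels were 1875 and 1310 CPM in the lowest tercile and 3001 and 2846 CPM in the highest, so that the log2 ratio ran from -0.52 to -0.08. Zc3h12a was at 104 and 72.4 CPM in the lowest tercile and at 190 and 160.5 CPM in the highest. The difference of Btg1 was present in each tercile, with ratios of -1.02, -0.91 and -0.84, and so was that of Pdcd4, with -0.90, -1.02 and -0.92. Pdcd4 and Rc3h1 were the 2 members that did not increase with the immediate-early share in WT. Pdcd4 was at 470 CPM in the lowest and 424 CPM in the highest tercile of WT cells, and Rc3h1 at 116 and 94.8 CPM.

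**Figure D3:**
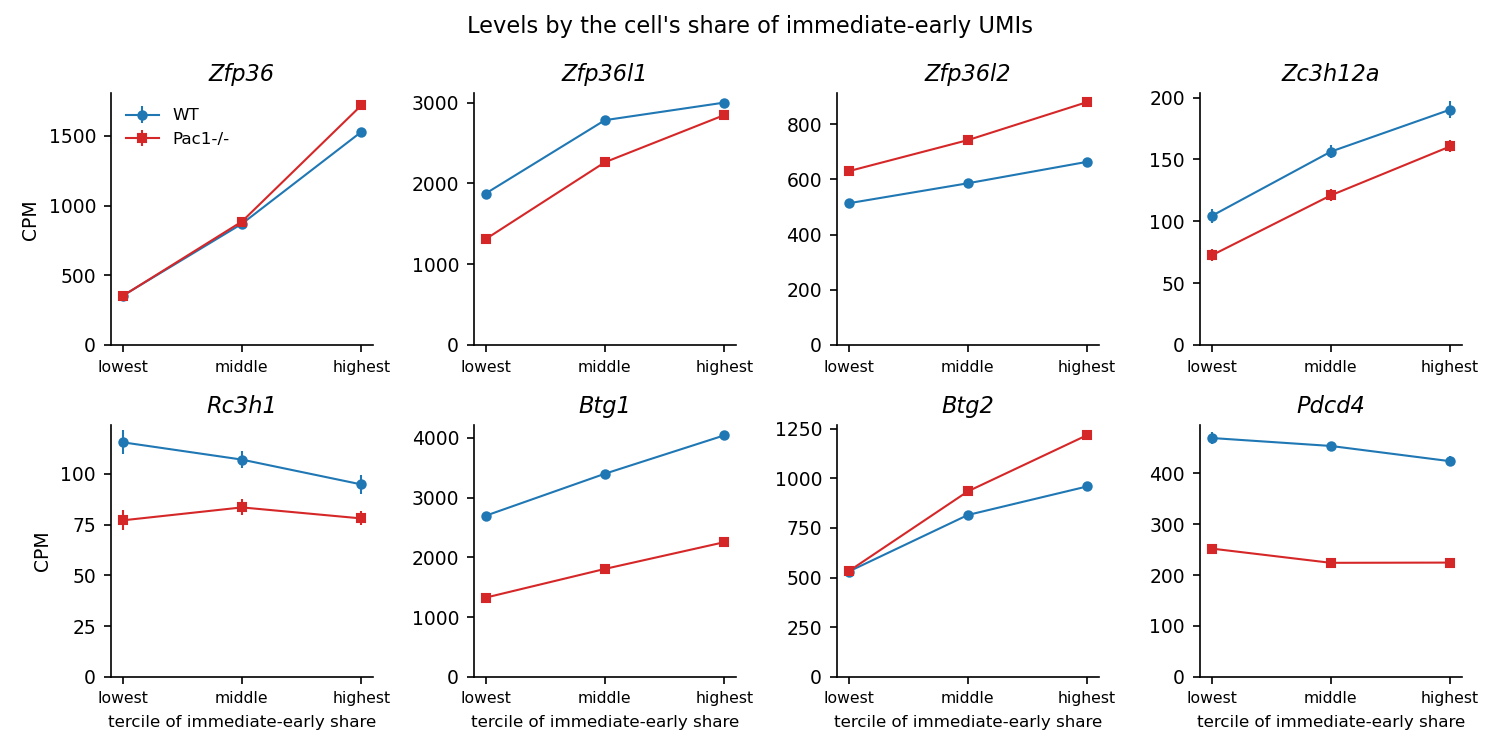
Level of each member (CPM, with 95% counting intervals) in terciles of cells by their share of UMIs from 10 immediate-early genes, in the WT and Pac1-/- libraries. Zfp36 and Btg2 have nearly the same level in both libraries in the lowest tercile, Btg2 is higher in Pac1-/- from the middle tercile and Zfp36 in the highest, Zfp36l1 converges, and Btg1 and Pdcd4 are lower in Pac1-/- in each tercile.

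Il5, the eosinophil growth factor, had at least 1 UMI in 4460 WT cells (53.1%, 52.1 to 54.2) and 2800 Pac1-/- cells (39.5%, 38.4 to 40.7). Tnf, an inflammatory cytokine, had one in 2490 (29.7%) and 1881 cells (26.5%), and Il2, a growth factor of lymphocytes, in 1671 (19.9%) and 1809 cells (25.5%). Cells with such a UMI were deeper. In WT the median was 5690.5 UMIs with and 3583 without Il5, 7199 and 3839 for Tnf, and 7898 and 3948 for Il2, and cells without a UMI include cells that express the gene. Thinning to 2000 UMIs left out the cells below that depth, 914 in WT and 617 in Pac1-/-. Of the 7480 and 6470 thinned cells, 37.7% in WT and 22.8% in Pac1-/- kept an Il5 UMI. The shares were 15.04% and 11.04% for Tnf and 9.10% and 9.47% for Il2. Cells with 2 B cell markers, which should lack Il5, were few: at that depth 1 of 7 in WT and 0 of 15 in Pac1-/- held an Il5 UMI, and the Clopper-Pearson interval of 0 of 15 reaches up to 21.8%. The background of free RNA could therefore not be set closely. For each status the members were compared within each library, with the status gene left out of the totals.

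Cells with an Il5 UMI held more Zfp36l1 and Zc3h12a than cells without, in both libraries. Of 11715 genes, 1.6% were at least 1.5-fold lower and 1.7% at least 1.5-fold higher in both libraries in cells with an Il5 UMI, and 0 of the 8 members were past that fold in both. The median gene was 0.15 lower in WT and 0.14 lower in Pac1-/- in these cells (log2). Zfp36l1 was at 1890 CPM without and 2933 CPM with an Il5 UMI in WT, a log2 ratio of 0.63 (0.62 to 0.65), which is past 1.5-fold. In Pac1-/- it was at 1859 and 2648 CPM, a ratio of 0.51 (0.49 to 0.53), just short of it. Relative to the median gene these ratios were 0.78 and 0.65, past 1.5-fold in both. Zc3h12a was at 128 CPM without and 165 CPM with an Il5 UMI in WT (0.36, 0.29 to 0.44) and at 101 and 147 CPM in Pac1-/- (0.54, 0.47 to 0.61). Among cells of like depth (deciles of a library), the ratios of Zfp36l1 were 0.47 in both libraries and those of Zc3h12a 0.33 and 0.51. Among cells of like immediate-early share (terciles of a library), they were 0.56 and 0.41 for Zfp36l1 and 0.28 and 0.44 for Zc3h12a.

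Both levels were higher in cells with more Il5 UMIs, which were also deeper. With 0, 1, 2 to 3 and 4 or more Il5 UMIs, Zfp36l1 was at 1890, 2185, 2601 and 3255 CPM in WT. In Pac1-/- it was at 1859, 2106, 2418 and 2988 CPM over the same classes. Zc3h12a was at 128, 135, 166 and 174 CPM in WT and at 101, 117, 140 and 165 CPM in Pac1-/-. The same order was thus found in both libraries, and for Zfp36l1 no neighbouring counting intervals overlapped. Those of Zc3h12a overlapped in WT between 0 and 1 and between 2 to 3 and 4 or more Il5 UMIs, and did not overlap in Pac1-/-. Median depth over these classes was 3583, 3954, 4880.5 and 8899 UMIs in WT and 4946, 5912, 7724 and 12028 in Pac1-/-, and Zfp36l1 also ran from 1885 CPM in WT cells below 2000 UMIs to 3172 CPM in those with 16000 or more. The classes were therefore repeated within each of the 5 depth classes, a step chosen after this was seen. Zfp36l1 was higher at each step of Il5 UMIs in 5 of 5 depth classes of WT and in 4 of 5 of Pac1-/-. In cells with 4000 to under 8000 UMIs it was at 1852, 2034, 2466 and 3379 CPM in WT and at 1811, 2015, 2531 and 3883 CPM in Pac1-/-. Zc3h12a was higher at each step in 2 depth classes of WT and 3 of Pac1-/-, and higher with 4 or more than with 0 Il5 UMIs in 5 and 4 of them. In Pac1-/- the exception to the latter was the class below 2000 UMIs. There, cells with 4 or more Il5 UMIs held 5 UMIs of Zc3h12a in WT and 0 in Pac1-/-. In cells without Il5, taken over all depths, Zfp36l1 had a log2 ratio of Pac1-/- over WT of -0.02 (-0.05 to -0.00), and in cells with 4 or more Il5 UMIs this ratio was -0.12. Both ratios depended on depth. Among cells with 0 Il5 UMIs the ratio was 0.09 (-0.04 to 0.21) below 2000 UMIs, -0.17 (-0.22 to -0.12) at 2000 to under 4000, -0.03 (-0.07 to 0.00) at 4000 to under 8000, -0.18 (-0.23 to -0.14) at 8000 to under 16000 and -0.21 (-0.32 to -0.10) at 16000 or more. Among cells with 4 or more Il5 UMIs the ratio was 0.30 (0.16 to 0.44) at 2000 to under 4000 UMIs, 0.20 (0.16 to 0.24) at 4000 to under 8000, 0.02 (-0.01 to 0.06) at 8000 to under 16000 and -0.23 (-0.26 to -0.21) at 16000 or more. Below 2000 UMIs, where only 21 WT and 6 Pac1-/- cells held 4 or more, it was 0.13 (-0.55 to 0.78).

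Without regard to depth, the other members differed less by Il5 status. Btg1 was slightly higher in Il5+ cells, at 3505 against 3264 CPM in WT and 1976 against 1798 CPM in Pac1-/-. Zfp36l2 was lower, at 565 against 665 CPM in WT and 751 against 817 CPM in Pac1-/-, and Pdcd4 was at 433 against 486 CPM and 217 against 249 CPM. Relative to the median gene, the ratio of Zfp36l2 was -0.08 in WT and 0.01 in Pac1-/-, and that of Pdcd4 -0.01 and -0.06. Zfp36 had log2 ratios of -0.15 in WT and -0.08 in Pac1-/-, and Btg2 -0.13 and -0.05. Relative to the median gene these became 0.00 and 0.06 for Zfp36 and 0.02 and 0.09 for Btg2. At like depth the ratios of Zfp36, Zfp36l2 and Btg2 were further below 0. Within deciles of depth they were -0.38 in WT and -0.24 in Pac1-/- for Zfp36, -0.35 and -0.23 for Zfp36l2 and -0.23 and -0.19 for Btg2. Thinned to 2000 UMIs per cell they were -0.40 and -0.20 for Zfp36, -0.40 and -0.26 for Zfp36l2 and -0.25 and -0.12 for Btg2. The ratio of Pdcd4 was -0.16 in WT and -0.20 in Pac1-/- without thinning, and -0.20 and -0.06 with it. In WT the ratios of Zfp36 and Zfp36l2 within deciles were thus as large in size as that of Zc3h12a.

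By the number of Il5 UMIs, Zfp36 showed a step at 4 or more. It was at 1024, 1048 and 1051 CPM in WT cells with 0, 1 and 2 to 3 Il5 UMIs and at 849 CPM in those with 4 or more, and Pac1-/- cells showed the same step, from 1223 CPM at 2 to 3 UMIs to 1035 CPM. Within depth classes Zfp36 was lower with 4 or more than with 0 Il5 UMIs in 4 of 5 classes of WT and 5 of 5 of Pac1-/-. The WT exception was the class below 2000 UMIs. There only 21 WT and 6 Pac1-/- cells held 4 or more Il5 UMIs, with 31 and 3 UMIs of Zfp36. In cells with 4000 to under 8000 UMIs Zfp36 was at 1073 CPM with 0 and 529 CPM with 4 or more Il5 UMIs in WT and at 1158 and 549 CPM in Pac1-/-. In WT cells with 2000 to under 4000 UMIs it was lower at each step, at 971, 950, 868 and 424 CPM. Zfp36l2 was likewise lower in 5 of 5 classes of WT and 4 of 5 of Pac1-/-, at 658 and 387 CPM in WT cells with 4000 to under 8000 UMIs and at 816 and 427 CPM in such Pac1-/- cells. The Pac1-/- exception was again the class below 2000 UMIs, where the few cells with 4 or more Il5 UMIs held 10 Zfp36l2 UMIs in WT and 9 in Pac1-/-. Rc3h1 had ratios by Il5 status of -0.00 (-0.08 to 0.08) in WT and -0.02 (-0.10 to 0.07) in Pac1-/-. Thinned to 2000 UMIs per cell its ratios were -0.09 and -0.26, and relative to the median gene 0.15 and 0.12. Heat shock genes were also lower in Il5+ cells, at a sum of 2514 against 3718 CPM in WT and 3920 against 5147 CPM in Pac1-/-, and their part in these ratios was not tested. The sum of the 9 ILC2 markers was higher in Il5+ cells, at 7229 against 5495 CPM in WT and 6813 against 5304 CPM in Pac1-/-. Their median log2 ratio was -0.01 in WT and 0.02 in Pac1-/-. Of the 9, 1 was at least 1.5-fold higher in both libraries and 0 lower, against 1.7% of all genes higher. B cell markers were at 4.77 against 10.1 CPM in WT and 5.10 against 19.9 CPM in Pac1-/-, and myeloid markers at 1.06 against 2.09 and 0.95 against 12.2 CPM. Erythroid markers were at 91.5 against 38.3 CPM in WT and, in the opposite order, 139 against 444 CPM in Pac1-/-. Epithelial markers were at 29.0 against 115 CPM and 85.4 against 70.1 CPM. The sum of T cell markers differed little, at 140 against 146 CPM in WT and 105.1 against 104.5 CPM in Pac1-/-. The median log2 ratio of the 4 T cell markers tested was -0.01 in WT and 0.37 in Pac1-/-. Of these 4, 1 was at least 1.5-fold higher in both libraries and 0 lower, against 1.7% of all genes higher. Without the 666 cells of each library that held 2 markers of another cell type, the ratios by Il5 status were 0.62 in WT and 0.51 in Pac1-/- for Zfp36l1 and 0.37 and 0.55 for Zc3h12a.

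**Figure D4:**
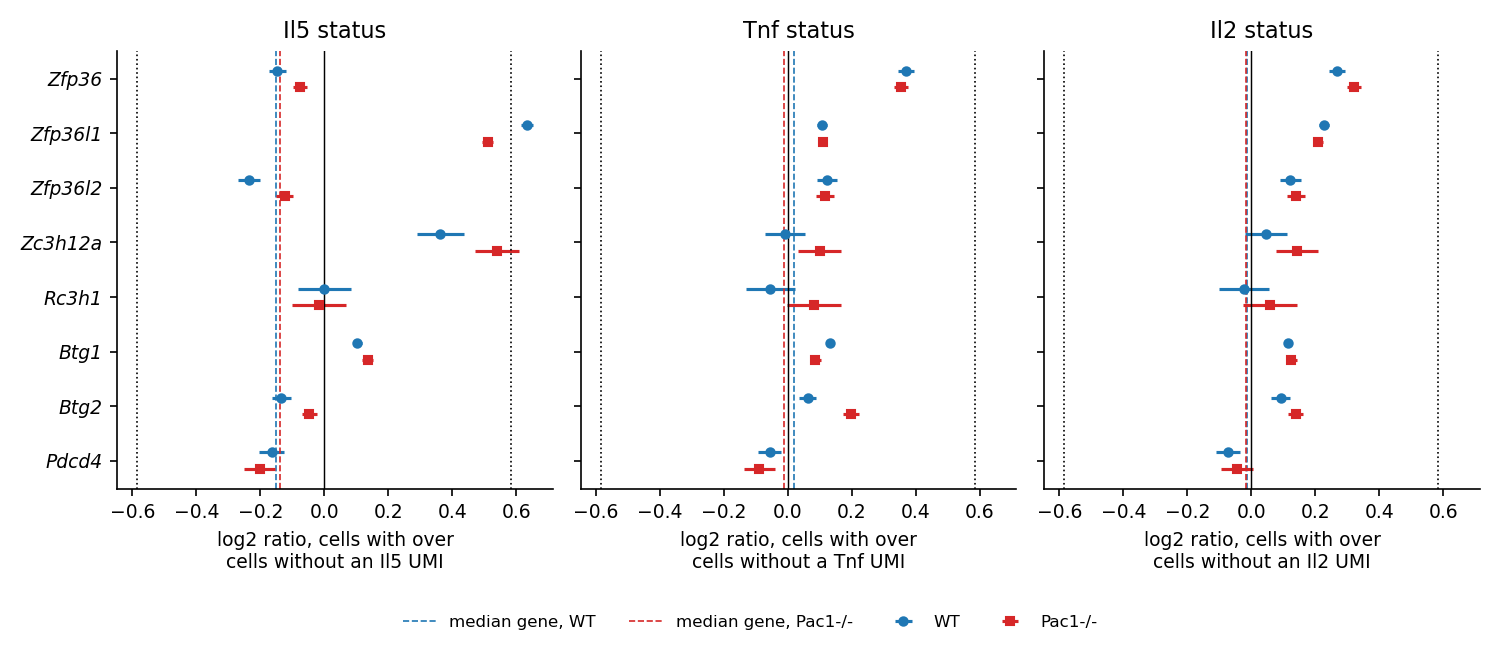
Log2 ratio of each member in cells with over cells without a UMI of Il5, Tnf or Il2, in the WT and Pac1-/- libraries, with 95% counting intervals; dotted lines mark 1.5-fold and dashed lines the median gene of each library. Zfp36l1 and Zc3h12a are highest in the Il5 panel, and Zfp36 is highest in the Tnf and Il2 panels.

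**Figure D5:**
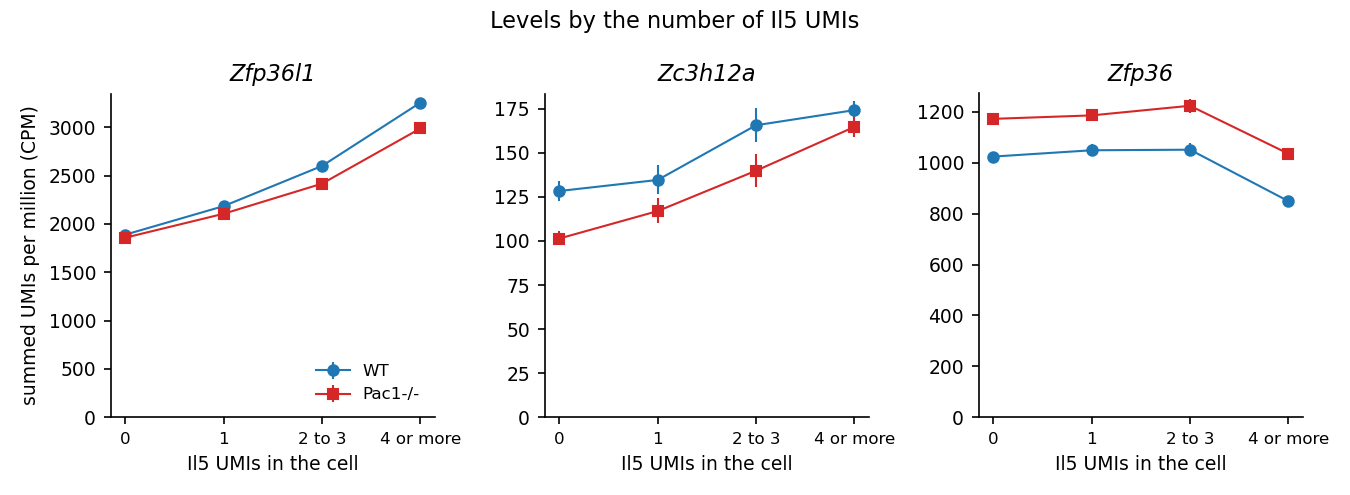
Level of Zfp36l1, Zc3h12a and Zfp36 (CPM, with 95% counting intervals) in cells with 0, 1, 2 to 3 and 4 or more Il5 UMIs, in the WT and Pac1-/- libraries. Zfp36l1 and Zc3h12a are higher at each step in both libraries, and Zfp36 is lowest at 4 or more Il5 UMIs.

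Zfp36, the regulator whose best-known target is the Tnf transcript, was the member with the largest ratio by Tnf status before cells of like immediate-early share were compared. Of 12170 genes, 0.953% were at least 1.5-fold lower and 0.197% at least 1.5-fold higher in cells with a Tnf UMI in both libraries, and 0 members were past that fold. Zfp36 was at 839 CPM in WT cells without and 1084 CPM in those with a Tnf UMI, a log2 ratio of 0.37 (0.34 to 0.39). In Pac1-/- it was at 1013 and 1293 CPM, a ratio of 0.35 (0.33 to 0.37). The median gene was at 0.02 and -0.01. By the number of Tnf UMIs (0, 1, 2 to 3, 4 or more), Zfp36 was at 839, 980, 1157 and 1127 CPM in WT and at 1013, 1150, 1326 and 1431 CPM in Pac1-/-. Immediate-early genes were also higher in Tnf+ cells, at a sum of 17773 against 15395 CPM in WT and 20602 against 17623 CPM in Pac1-/-. Of the other cell types, T cell markers were at 159 against 127 CPM in WT and 109 against 101 CPM in Pac1-/- in Tnf+ against Tnf- cells, epithelial markers at 24.7 against 79.2 and 35.0 against 114 CPM and erythroid markers at 68.7 against 82.5 and 54.9 against 439 CPM. B cell markers were at 4.49 against 7.88 CPM in WT and 6.19 against 15.5 CPM in Pac1-/-. Myeloid markers were at 0.55 against 2.05 CPM and 0.85 against 9.60 CPM. Without the cells that held 2 markers of another cell type, the ratio of Zfp36 by Tnf status was 0.37 in both libraries. Among cells in the same tercile of the immediate-early share within a library, the ratio of Zfp36 was 0.12 in WT and 0.08 in Pac1-/-, and that of Zc3h12a -0.14 and -0.08.

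The other members lay within 0.20 of 0 on the log2 scale by Tnf status in both libraries. Zfp36l2 had ratios of 0.12 and 0.12 and Btg1 of 0.13 and 0.09, whereas Pdcd4 was at -0.06 and -0.09. Btg2 had ratios of 0.06 in WT and 0.20 in Pac1-/-. Zfp36l1 had a ratio of 0.11 in both libraries, and this sign did not hold among cells of like depth, where the ratios were -0.13 in WT and -0.05 in Pac1-/-. Rc3h1 and Zc3h12a had ratios of opposite sign in the libraries, Rc3h1 -0.05 (-0.13 to 0.02) in WT and 0.08 (-0.00 to 0.17) in Pac1-/-, and Zc3h12a -0.01 (-0.07 to 0.05) and 0.10 (0.03 to 0.17).

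By Il2 status the pattern resembled that of Tnf for Zfp36, and Zfp36l1 was higher as well. Of 11894 genes, 0.79% were at least 1.5-fold lower and 0.0925% at least 1.5-fold higher in cells with an Il2 UMI in both libraries, and 0 members were past that fold. Zfp36 was at 890 CPM without and 1071 CPM with an Il2 UMI in WT (0.27, 0.24 to 0.29) and at 1029 and 1286 CPM in Pac1-/- (0.32, 0.30 to 0.34). Within terciles of the immediate-early share these ratios were 0.03 and 0.05. Erythroid markers were at 105 against 60.4 CPM in WT and 178 against 334 CPM in Pac1-/- in Il2+ against Il2- cells, and epithelial markers at 23.3 against 70.2 and 34.1 against 111 CPM. B cell markers were at 4.89 against 7.06 CPM in WT and 5.71 against 15.5 CPM in Pac1-/-. Myeloid markers were at 1.37 against 1.35 CPM and 0.94 against 9.20 CPM. Without the cells that held 2 markers of another cell type the ratios of Zfp36 by Il2 status were 0.27 and 0.32. Zfp36l1 was at 2482 and 2903 CPM in WT (0.23, 0.21 to 0.24) and at 2169 and 2508 CPM in Pac1-/- (0.21, 0.19 to 0.22). Within deciles of depth its ratios were 0.02 and 0.04. Zfp36l2, Btg1 and Btg2 had ratios between 0.09 and 0.14 in both libraries, Zc3h12a 0.05 and 0.14, Rc3h1 -0.02 and 0.06, and Pdcd4 -0.07 and -0.04.

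Taking the 3 status genes together, the lowest and highest levels of Zfp36 fell in the same groups of cells in both libraries. It was lowest in cells with a UMI of Il5 alone, at 683 CPM in WT and 825 CPM in Pac1-/-. It was highest in cells with Tnf and Il2 but no Il5 UMI, at 1193 and 1461 CPM, 1.75-fold and 1.77-fold over the lowest. Zfp36l2 and Btg2 were also lowest in cells with Il5 alone, at 482 and 704 CPM in WT and 646 and 840 CPM in Pac1-/-. Zc3h12a was highest in those cells, at 174 CPM in WT and 161 CPM in Pac1-/-. Zfp36l1 was lowest in cells with none of the 3 UMIs, at 1850 and 1730 CPM. Pdcd4, Btg1 and Rc3h1 varied least over the combinations in WT, by 1.19-fold, 1.20-fold and 1.28-fold.

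To describe which genes moved with the members, log2(CPM + 1) was correlated over 16 groups, the 8 combinations in each library, among 7002 genes with at least 500 UMIs in each library. The 16 groups share 2 libraries and differ in depth, so Pearson's r is given as a description. A gene that differs between the libraries in the same direction as a member gains a high r from that difference, so r over the 8 groups of each library follows it, WT first. Zfp36 was most like Jun (0.95, within libraries 0.92 and 0.97), Ppp1r15a (0.93, 0.96 and 0.94) and Sh3bp1 (0.93, 0.93 and 0.91). Zfp36l1 was most like Ero1l (0.96, 0.97 and 0.94), Gata3, the lineage factor of ILC2s (0.95, 0.95 and 0.96), and Spry2 (0.94, 0.96 and 0.94). Zc3h12a was most like Rora, another ILC2 factor (0.98, 0.96 and 0.98), Nrip1 (0.97, 0.98 and 0.97) and Dusp5 (0.97, 0.98 and 0.96). Zfp36l2 was most like Relch (0.98, 0.94 and 0.96), Tlk1 (0.97, 0.94 and 0.99) and Ahcyl2 (0.97, 0.92 and 0.94). Btg2 was most like Coq10b (0.95, 0.89 and 0.91), Zfp36l2 (0.95, 0.90 and 0.88) and Srsf3 (0.95, 0.87 and 0.92). For these 5 members r was 0.87 or more within each library. The genes were picked among 7002 for a high r over the same 16 groups, which favours high values within libraries. The share of all genes that reach such values was not counted.

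For Btg1, Pdcd4 and Rc3h1 the likeness was lower within the libraries than over both. Btg1 was most like Trdv4 (0.99, within libraries 0.74 and 0.81), Ndfip1 (0.99, 0.83 and 0.78) and Tra2b (0.99, 0.47 and 0.79). Pdcd4 was most like Hcst (0.995, 0.69 and 0.93), Rpl22 (0.99, 0.77 and 0.89) and Ndufa3 (0.99, 0.88 and 0.87). Rc3h1 was most like Slirp (0.95, 0.54 and 0.79), Dusp11 (0.95, 0.57 and 0.73) and Ptgir (0.94, 0.62 and 0.58). Trdv4, Ndfip1, Hcst and Ndufa3 were themselves lower in Pac1-/-, with log2 ratios of -1.85, -0.93, -1.12 and -1.63. Between members, several pairs changed sign or came near 0 once the libraries were taken singly. Btg1 and Pdcd4 had an r of 0.95 over both libraries and -0.39 and -0.55 within them, Btg1 and Btg2 -0.70 over both and 0.22 and 0.24 within, and Rc3h1 and Pdcd4 0.90 over both and 0.02 and -0.01 within. Btg1 and Zfp36l2 were at -0.74 over both and at 0.18 and -0.01 within. Other pairs held in each library. Zfp36l1 and Zc3h12a were at 0.92 and 0.97, Zfp36 and Zfp36l2 at 0.89 and 0.92, and Btg2 and Zfp36l2 at 0.90 and 0.88. Pdcd4 ran against Zfp36l1 (-0.93 and -0.85) and against Zc3h12a (-0.89 and -0.91) within the libraries, and Zc3h12a against Zfp36l2 (-0.83 and -0.64) and against Zfp36 (-0.61 and -0.39).

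The machinery with which the members work was read against the shares of all genes between the libraries, 16.9% at least 1.5-fold higher and 8.34% at least 1.5-fold lower in Pac1-/-. Of 14 deadenylase subunits (CCR4-NOT, PAN2-PAN3 and PARN) 1 was at least 1.5-fold higher in Pac1-/- and 0 lower, the higher one being Cnot8 at 9.42 CPM in WT and 15.1 CPM in Pac1-/-. Their median log2 ratio was 0.09, or -0.10 relative to the median gene. Of 10 genes of decapping and 5′ decay 1 was higher, Lsm1, at 16.3 and 30.1 CPM, with a median of -0.05. Of 15 other regulators of unstable mRNA 1 was higher, Tia1, at 50.6 and 76.9 CPM, with a median of 0.26. Of 8 genes of eIF4F and related initiation factors, which include those of the eIF4A helicase bound by Pdcd4, 0 were past 1.5-fold. The largest ratio was that of Eif4a2 at 237 and 341 CPM (0.53). In the BTG/Tob family, Btg3 was lower, at 98.0 and 56.5 CPM (-0.79, -0.86 to -0.73). Tob2, at 690 and 499 CPM, and Tob1, at 59.1 and 79.1 CPM, stayed within 1.5-fold, and Btg4 had too few UMIs. By Il5, Tnf or Il2 status 0 genes of these 5 lists were past 1.5-fold in both libraries. Of all genes, 1.6% were lower and 1.7% higher by Il5, 0.953% and 0.197% by Tnf, and 0.79% and 0.0925% by Il2. The count of 0 is therefore near the share of all genes.

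Of 20 tested transcripts known as unstable or as targets of these regulators, 3 were at least 1.5-fold lower and 6 higher in Pac1-/-, against 8.34% and 16.9% of all genes, and Il3 had too few UMIs. The largest ratios were those of Ifng, at 4 and 48 UMIs, and of Ccl3, at 2.05 and 5.95 CPM. Of 19 tested by Il5 status, 8 were at least 1.5-fold higher in Il5+ cells of both libraries and 0 lower, against 1.7% of all genes higher. Cxcl2 was at 1146 CPM without and 2115 CPM with an Il5 UMI in WT and at 1024 and 2131 CPM in Pac1-/-. By Tnf status 2 of 19 were higher in both libraries, the chemokines Ccl3 and Ccl4, against 0.197% of all genes. By Il2 status 0 were higher, against 0.0925% of all genes. Of 8 genes associated with quiescence, 2 were at least 1.5-fold higher in Pac1-/- and 1 lower, against 16.9% and 8.34% of all genes. Klf2, a factor of resting lymphocytes, was at 96.5 CPM in WT and 264 CPM in Pac1-/-, and Txnip at 206 and 378 CPM, the opposite direction to Btg1. The lower one was S1pr1, at 7.86 and 5.07 CPM, and Foxo1, at 47.1 and 37.9 CPM (-0.31, -0.40 to -0.23), was lower within 1.5-fold, the same direction as Btg1. Of 7 cell cycle genes with enough UMIs 1 was higher and 0 lower, against 16.9% and 8.34% of all genes, and the summed level of the 10 listed was 106 CPM in WT and 111 CPM in Pac1-/-.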

How the data were processed

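Lung ILC2s of WT and Pac1-/- mice were profiled with the Chromium Next GEM 3′ kit, 1 pooled library per genotype, and sequenced by the authors. The matrices deposited by the authors held raw UMI counts, one value for each gene in each barcode, and had not been normalized. The submitters' processing notes name Cell Ranger 6.1.1 and mm10 (GRCm38), whereas the matrix header names an older release of Cell Ranger. Barcodes and gene names were taken as deposited by the authors, and 0 value columns were set aside. Counting used read ends at the 3′ side, so levels of different genes were not compared.

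Barcodes with at least 500 genes and at most 10% mitochondrial UMIs were kept, 8394 WT and 7087 Pac1-/- cells. The gene minimum removed 2403 and 2110 barcodes and the mitochondrial limit 171 and 441, with 102 and 143 barcodes that failed both counted under each. Doublets were not called, and the 10% deepest cells were left out as an alternative. UMIs were summed, with exact Poisson intervals for CPM, exact conditional binomial intervals for ratios and Clopper-Pearson intervals for shares (Python 3.11.15, numpy 2.4.6, scipy 1.17.1, pandas 2.3.3, matplotlib 3.10.9). Called meant a ratio of at least 1.5, for status in the same direction in both libraries. Genes needed 50 UMIs over both libraries, or an expected 10 in the smaller status group of each library. The scripts were tested on simulated data.

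All 8 members were named, and of each list the genes with the largest ratios. Members and lists were chosen with earlier results of these data known. Lists of other cell types were also used to leave out cells. Alternatives were stricter cells, cells without other markers, equal weight per cell, thinning to 2000 UMIs, scaling to the median gene, other minimum counts and folds, strata of depth (10 classes) or immediate-early share (3 classes), and 2 or more status UMIs. Thinned values left out cells with fewer than 2000 UMIs. Leaving out cells with a T cell marker, the immediate-early strata between libraries and the depth classes of Il5 UMIs were chosen after seeing the data.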

Additional observations from a re-analysis of the deposited data

How the results depend on the processing

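The direction of each of the 8 ratios between libraries was the same under all 10 alternatives. The alternatives that changed only the minimum count could not alter a ratio, between libraries or by status, though they are among those counted. The count of 2 members past the fold became 0 with a 2-fold rule, which 3.3% of all genes passed lower and 3.53% higher. It became 4 with a laxer rule, a log2 ratio of 0.32, which added Rc3h1 lower and Zfp36l2 higher, against 15.6% of all genes lower and 36.9% higher. The ratio of Btg1 ran from -1.04 to -0.82 and that of Pdcd4 from -1.15 to -0.90. By Il5 status the count of 0 became 1 relative to the median gene (Zfp36l1; 2.94% of all genes higher), 1 with at least 2 UMIs against 0 (Zfp36l1; 2.36%), and 2 with the laxer rule (Zfp36l1 and Zc3h12a; 4.69%). These 2 genes were higher under all 12 alternatives. By Tnf status the count of 0 became 1 with the laxer rule (Zfp36; 1.35% of all genes higher), and by Il2 status it was 0 under each. Zfp36 was higher by Tnf and by Il2 under all 12. Ratios under 0.2 in size changed sign with depth, thinning, scaling or immediate-early share for several members, the cause of which was not tested. No paired analysis was possible because there is 1 library per genotype. The counting intervals do not cover the spread between mice for any member, since each genotype has 1 library.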

Other observations

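The barcodes left out of the comparisons, 2472 in WT and 2408 in Pac1-/-, gave the same order between libraries for each member. They came from the same libraries as the cells measured, so they add no replicate. In them Btg1 was at 2912 CPM in WT (2829 to 2997) and 1778 CPM in Pac1-/- (1719 to 1838), and Pdcd4 at 546 (511 to 584) and 289 CPM (266 to 314). Zfp36 was at 619 and 730 CPM, Btg2 at 631 and 808 CPM, Zfp36l2 at 523 and 648 CPM and Zfp36l1 at 1841 and 1662 CPM. The intervals of Zc3h12a, at 133 (116 to 152) and 105 CPM (91.0 to 120), overlapped between libraries, as did those of Rc3h1, at 112 and 87.9 CPM.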
